A study of Rattus norvegicus with 12 samples.

Results

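The comparison described here sets the hind leg skeletal muscle of newborn rats whose mothers ate a low protein diet against that of newborns whose mothers ate control food. It takes the 4 low protein arrays and the 4 control arrays by their labels, 8 of the 12 arrays of the series, and uses all 18957 detected probe sets of 29214 on the array. All animals were male newborns of the Wistar strain, and the diets ran through gestation from day 1. Each array held RNA pooled from 3 male offspring of 1 dam, and there were 4 dams in a group, so the dam was the replicate. Another group of 4 dams, fed the low protein diet with 2% w/v taurine in the drinking water, was used only for the shared estimate of spread. The values are log2 signals of Affymetrix arrays, so a difference of 1 is a 2-fold change of the signal, and levels of different probe sets are not compared. The number of arrays limits the precision.

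A maternal low protein diet is a standard model of poor growth before birth. Newborn rat muscle is still immature: embryonic and neonatal myosins are present, fibres are being innervated, satellite cells and fibroblasts divide, and the connective tissue around the fibres is laid down. Protein supply acts on muscle growth through insulin-like growth factors and the kinase complex mTORC1, which controls ribosome production and translation. Muscle also holds a circadian clock, a feedback loop of transcription factors in which BMAL1 and CLOCK drive the Per, Cry and Nr1d genes, whose products repress them in turn.

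Of 52 thick and thin filament genes, which define muscle, 43 were measured, among them the myosins described below. Control 3 and control 4 also carried liver transcripts: the mean of 17 hepatocyte markers was 7.0, 8.35, 6.89 and 7.10 in low protein 1 to 4, against 6.70, 7.01, 11.06 and 11.95 in control 1 to 4. Low protein 2 therefore lay above the other low protein arrays, and control 3 and control 4 above every other array. Albumin (Alb), the main secreted protein of liver, had log2 values of 8.13, 11.43, 8.66 and 9.31 in low protein muscle and 7.25, 8.52, 13.37 and 13.55 in control muscle. The groups overlapped, and the difference of -1.29 with all controls became 1.5 with control 1 and 2 only. In a tissue sample, fewer cells of a type and less RNA per cell cannot be told apart. Most lists are therefore given with all 4 controls and with control 1 and 2 only. Some lists and many single genes are given with all controls only, and values without a named fit are with all controls.

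With all controls, 4127 probe sets were higher and 2263 lower in low protein muscle at an adjusted p of 0.05 (limma), 21.8% and 11.9% of those tested. With control 1 and 2 only, 2040 were higher (10.8%) and 1665 lower (8.78%). Most differences were small: the 292 probe sets described below as higher in every fit had a median difference of 0.38 and none above 0.77. The 645 described below as lower in every fit had a median of -0.35 and reached -1.22, with 9 beyond 1 in size. Over all 18957 probe sets, 102 differed by more than 1, from -2.49 to 1.16. The direction of the differences followed the signal level. Probe sets split into 10 bins by mean level had a median difference of -0.129 in the dimmest bin and 0.165 in the bin numbered 8, and these were -0.130 and 0.139 with control 1 and 2 only. Cyclic loess, a normalization that removes level-dependent differences between arrays, brought every bin to between -0.039 and 0.022. After it 945 probe sets were higher (4.98%) and 1619 lower (8.54%), and with control 1 and 2 only 645 (3.4%) and 1292 (6.82%), 10.2% in either direction. The share of calls that were higher was thus 64.6% as deposited, 36.9% after cyclic loess, 51.1% after quantile normalization and 29.4% after median centring. Whether the dependence on level came from the tissue or from the arrays was not tested.

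**Figure D1:**
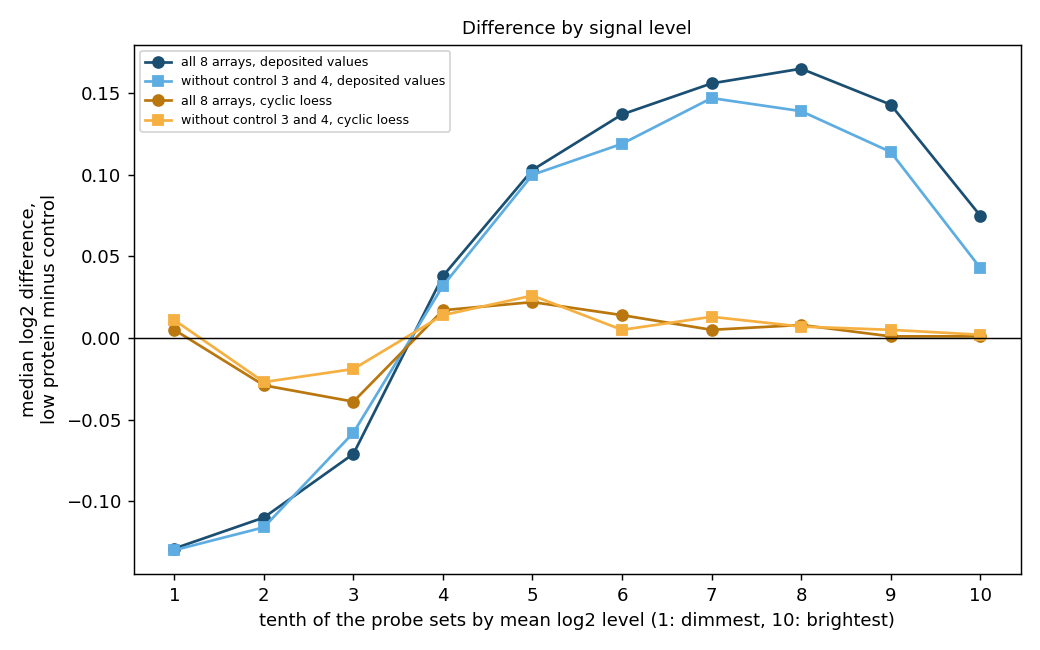
Median log2 difference, low protein minus control, of probe sets in 10 bins by their mean log2 level (x axis, dimmest first), for 4 fits: all controls or control 1 and 2 only, as deposited or after cyclic loess. The deposited values run from -0.129 in the dimmest bin to 0.165 in bin 8, and after cyclic loess every bin lies close to 0.

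The count of calls also depended on single arrays. With all controls it was 6390, and it fell to 4235 without low protein 2, 3929 without low protein 3 and 4211 without control 3. With control 1 and 2 only it was 3705, and it fell to 2396 without low protein 2, 1858 without low protein 3, 210 without control 1 and 974 without control 2. A stricter set was therefore used: probe sets with the same call in all 4 fits (all controls or control 1 and 2 only, each as deposited and after cyclic loess) and no overlap between the 4 low protein and the 4 control arrays. It held 292 probe sets higher (1.54%) and 645 lower (3.4%) in low protein muscle, 4.94% in either direction (1.61% and 4.21% had the same call in the 4 fits before the condition on overlap), and is called the 4-fit set below. With each of the 8 arrays left out in turn from the fit of all controls, between 881 and 936 of these 937 kept their call. The set was chosen on these same arrays, and that fit has the most calls, so this says little about its stability. Leaving out arrays was not repeated on the set in the other fits. Without a condition on calls, 22.2% of all probe sets had every low protein array above every control, and 10.6% had it below.

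For gene programmes, each gene with 1 symbol was represented by 1 probe set, which gave 11343 genes. Of these, 27.8% were higher and 7.24% lower with all controls, and 14.4% and 4.14% with control 1 and 2 only. After cyclic loess 6.3% were higher and 4.22% lower, and 4.13% and 2.67% with control 1 and 2 only. The median gene was at 0.114 with all controls, 0.098 with control 1 and 2 only, 0.027 after cyclic loess and 0.034 after cyclic loess with control 1 and 2 only. In the 4-fit set 2.06% of genes were higher and 1.72% lower. Counts in a list are read against these shares, since in these data a list of medium-bright genes moved up with the whole array. The lists were taken from textbook pathways and their members share arrays, so the counts are descriptions without a test of the list. In 33 of the 45 lists limma called 0 genes lower with all controls, and at an unadjusted p of 0.05 it gave 5 lower among their 1229 genes. These lists were picked for having no adjusted fall, so the second count is low partly by that choice.

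**Figure D2:**
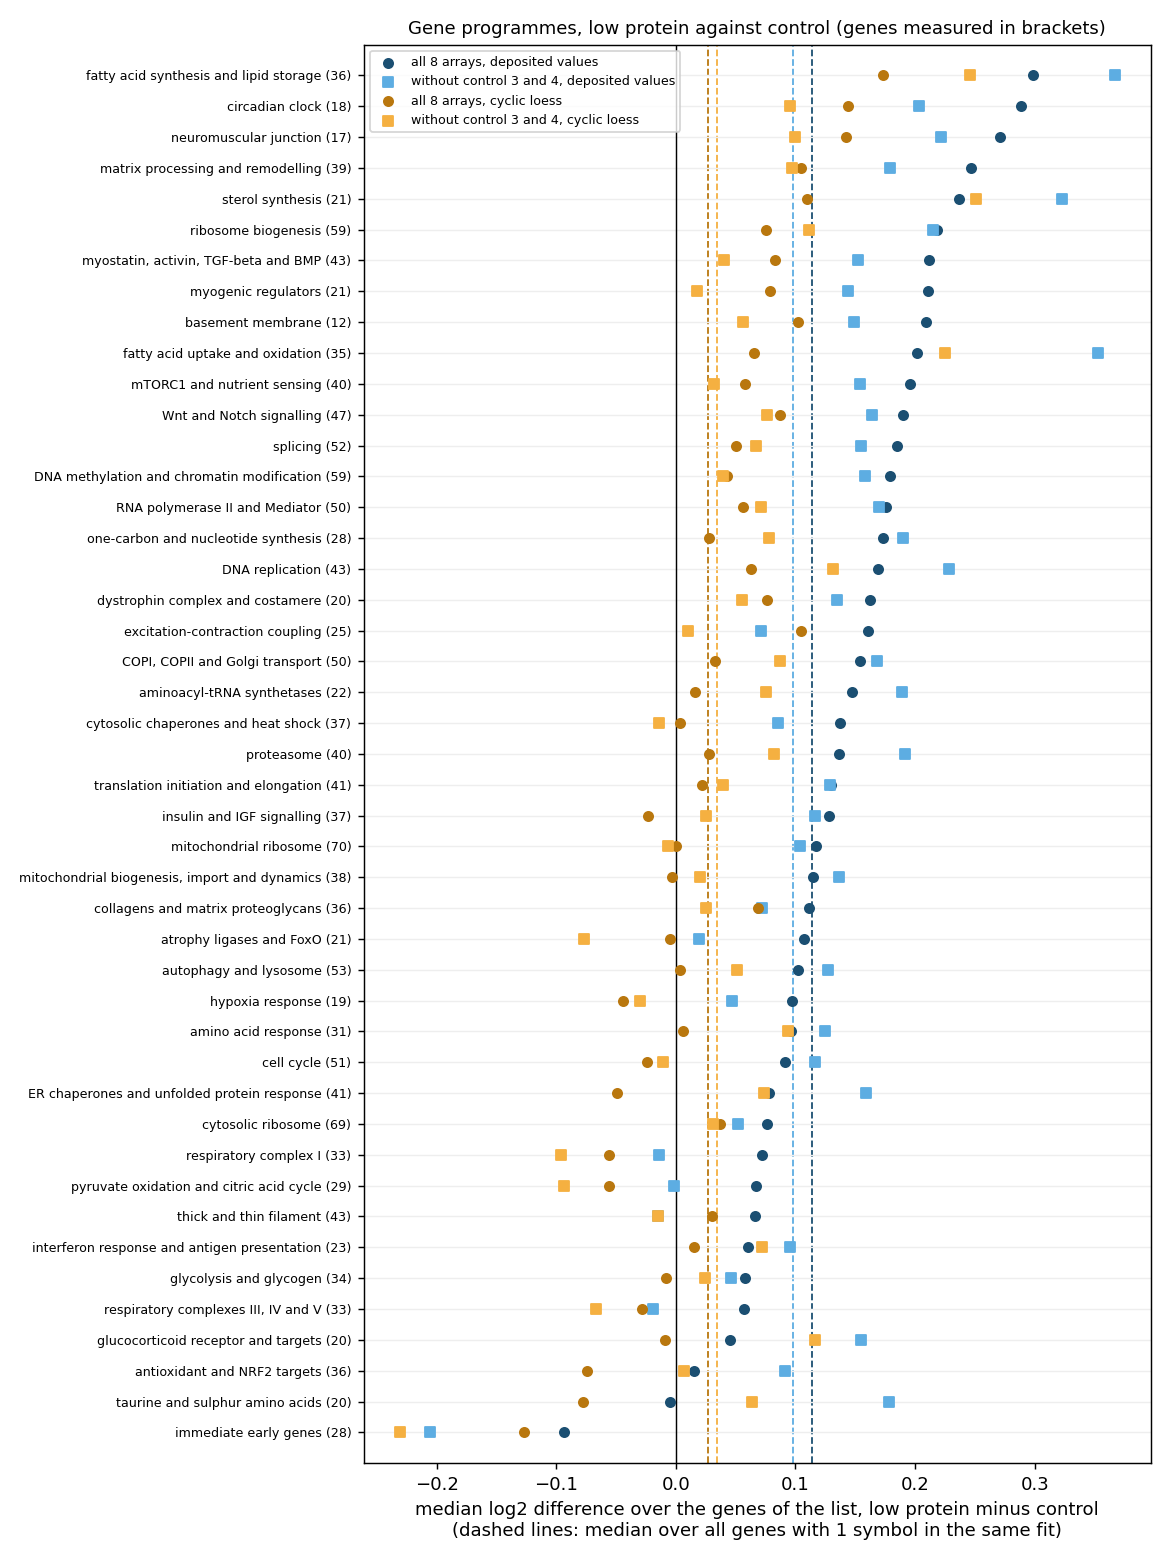
Median log2 difference, low protein minus control, of the genes in each of 45 lists (genes measured in brackets), in the 4 fits, with the median of all 11343 genes in each fit as a dashed line. Lipid synthesis, clock, neuromuscular junction and matrix processing lie highest with all controls, and immediate early genes, taurine and sulphur amino acid genes and antioxidant genes lie lowest.

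Few genes of the contractile filaments of the fibre were called. Of 43 thick and thin filament genes, 4 were higher and 0 lower with all controls, and 1 and 0 with control 1 and 2 only. Their median was 0.066 with all controls, -0.015 with control 1 and 2 only and 0.030 after cyclic loess. Embryonic myosin heavy chain Myh3 had log2 values of 12.59, 12.78, 12.69 and 12.75 in low protein muscle and 12.85, 12.78, 12.74 and 12.61 in control muscle. These values overlapped, with a difference of -0.05 (SE 0.06, adjusted p = 0.588). The slow myosin Myh7 was at 0.13 (SE 0.09, adjusted p = 0.226) and the fast myosin Myh2 at 0.19 (SE 0.16, adjusted p = 0.369), also with overlapping arrays. Mylk2, the skeletal myosin light chain kinase, averaged 9.65 ± 0.22 in low protein muscle and 9.22 ± 0.12 in control muscle (SD, n = 4 each; adjusted p = 0.0132), but its difference of 0.44 became 0.35 (adjusted p = 0.079) with control 1 and 2 only. Of 20 genes of the dystrophin complex and costamere, which tie the filaments to the membrane, 9 were higher with all controls and 2 with control 1 and 2 only, with medians of 0.162 and 0.135. The share with all controls was 45.0%, against 27.8% of all genes. With control 1 and 2 only 14.4% of all genes were higher. Sgca, the alpha sarcoglycan gene, was at 0.39 (SE 0.09, adjusted p = 0.00918) and then 0.28 (adjusted p = 0.0573).

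Respiratory chain genes also gave few calls. Of 33 complex I genes 3 were higher with all controls and 0 with control 1 and 2 only, and of 33 genes of complexes III, IV and V 1 and 0. At an unadjusted p of 0.05, limma gave 1 higher and 1 lower for complex I and 2 higher and 3 lower for complexes III, IV and V with control 1 and 2 only. Complex I had a median of 0.072 with all controls, -0.014 with control 1 and 2 only, and -0.056 after cyclic loess, so the sign depended on the setting. Glycolysis and glycogen genes counted 4 higher of 34, then 0 (2 at an unadjusted p of 0.05, limma), with medians of 0.058 and 0.046. The list leaves out 2 glycogen genes of the 4-fit set, named after their values were seen: the glycogen phosphorylase gene Pygb and Epm2a, the glycogen phosphatase laforin, each higher by 0.42 with all controls. Citric acid cycle and pyruvate oxidation genes counted 3 higher of 29 in both fits, and 1 gene was in the 4-fit set. This was Ogdh, a subunit of the oxoglutarate dehydrogenase complex, with 10.25, 10.18, 10.26 and 10.12 in low protein muscle and 9.84, 9.94, 9.95 and 9.93 in control muscle. All low protein arrays lay above all control arrays, by 0.29 (SE 0.05, adjusted p = 0.00461). Genes of mitochondrial biogenesis, import and dynamics counted 9 higher of 38 and then 1, with medians of 0.115 and 0.136, and after cyclic loess 0 higher and 1 lower, with a median of -0.003 (0 higher and 4 lower at an unadjusted p of 0.05, limma). The fusion protein gene Mfn2 was higher by 0.27 (SE 0.05, adjusted p = 0.00619) with all controls and was at 0.12 (adjusted p = 0.167) after cyclic loess. Ppargc1a, the coactivator of mitochondrial genes, overlapped between the groups at 0.38 (SE 0.23, adjusted p = 0.209), and Nrf1, a transcription factor of respiratory genes, was at 0.25 (SE 0.06, adjusted p = 0.00954) with all controls and 0.19 (adjusted p = 0.0691) with control 1 and 2 only.

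Genes for the innervation of the fibre gave more calls. Of 17 neuromuscular junction genes 9 were higher with all controls, 6 with control 1 and 2 only and 3 after cyclic loess, with medians of 0.271, 0.222 and 0.142. Lrp4, the receptor for nerve-derived agrin, had log2 values of 8.89, 8.90, 8.97 and 8.74 in low protein muscle and 8.43, 8.52, 8.45 and 8.30 in control muscle. Its groups did not overlap, and it was higher by 0.45 (SE 0.06, adjusted p = 0.00417), by 0.40 (adjusted p = 0.00915) with control 1 and 2 only and by 0.29 (adjusted p = 0.0105) after cyclic loess. It missed the 4-fit set at 0.27 (adjusted p = 0.0526) with both changes, that is, after cyclic loess with control 1 and 2 only. Chrnd, the delta subunit of the acetylcholine receptor, followed the same pattern, at 0.37 (SE 0.06, adjusted p = 0.00492) with all controls and 0.25 (adjusted p = 0.055) with both changes.

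Among 25 genes of excitation-contraction coupling, 8 (32.0%) were higher with all controls and 4 with control 1 and 2 only. These shares were close to those of all genes, 27.8% and 14.4%. The medians were 0.161 and 0.071, against 0.114 and 0.098 for the median gene. In this list 2 ion channels were in the 4-fit set. Clcn1, the chloride channel that stabilises the resting membrane of muscle, had 8.28, 8.33, 8.25 and 8.22 in low protein muscle against 7.89, 7.88, 7.91 and 7.79 in control muscle. Every low protein value lay above every control value, by 0.40 on average (SE 0.06, adjusted p = 0.00417). Kcnj2, an inward rectifier potassium channel that also sets the resting potential, averaged 7.80 ± 0.07 in low protein muscle and 7.42 ± 0.13 in control muscle (SD, n = 4 each), a difference of 0.38 (SE 0.07, adjusted p = 0.00492). With both changes Clcn1 was at 0.25 and Kcnj2 at 0.38.

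Myogenic regulators depended on the controls used. With all controls 10 of 21 were higher, with control 1 and 2 only 1 and after cyclic loess 1. On single arrays the list's median, relative to the mean of the controls, was 0.236, 0.203, 0.322 and 0.119 in low protein 1 to 4 and 0.064, 0.131, -0.011 and -0.175 in control 1 to 4. Control 2 thus reached the lowest low protein array. Myog, a driver of terminal differentiation, was at 0.27 (SE 0.09, adjusted p = 0.0372) with all controls and 0.14 (adjusted p = 0.268) with control 1 and 2 only. Myf6, the myogenic factor of maturing fibres, was at 0.30 (adjusted p = 0.0148) and 0.29 (adjusted p = 0.0584) in the same order. Eya1, a transcriptional coactivator of early myogenesis, remained called with control 1 and 2 only, at 0.48 (adjusted p = 0.00518) with all controls and 0.34 (adjusted p = 0.0174) without control 3 and 4, and was at 0.21 (adjusted p = 0.118) with both changes. Myod1, which commits cells to muscle, was at 0.12 (SE 0.07, adjusted p = 0.171) with all controls and -0.04 after cyclic loess. The growth inhibitor Mstn was at 0.28 (SE 0.14, adjusted p = 0.141), with overlapping arrays.

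**Figure D3:**
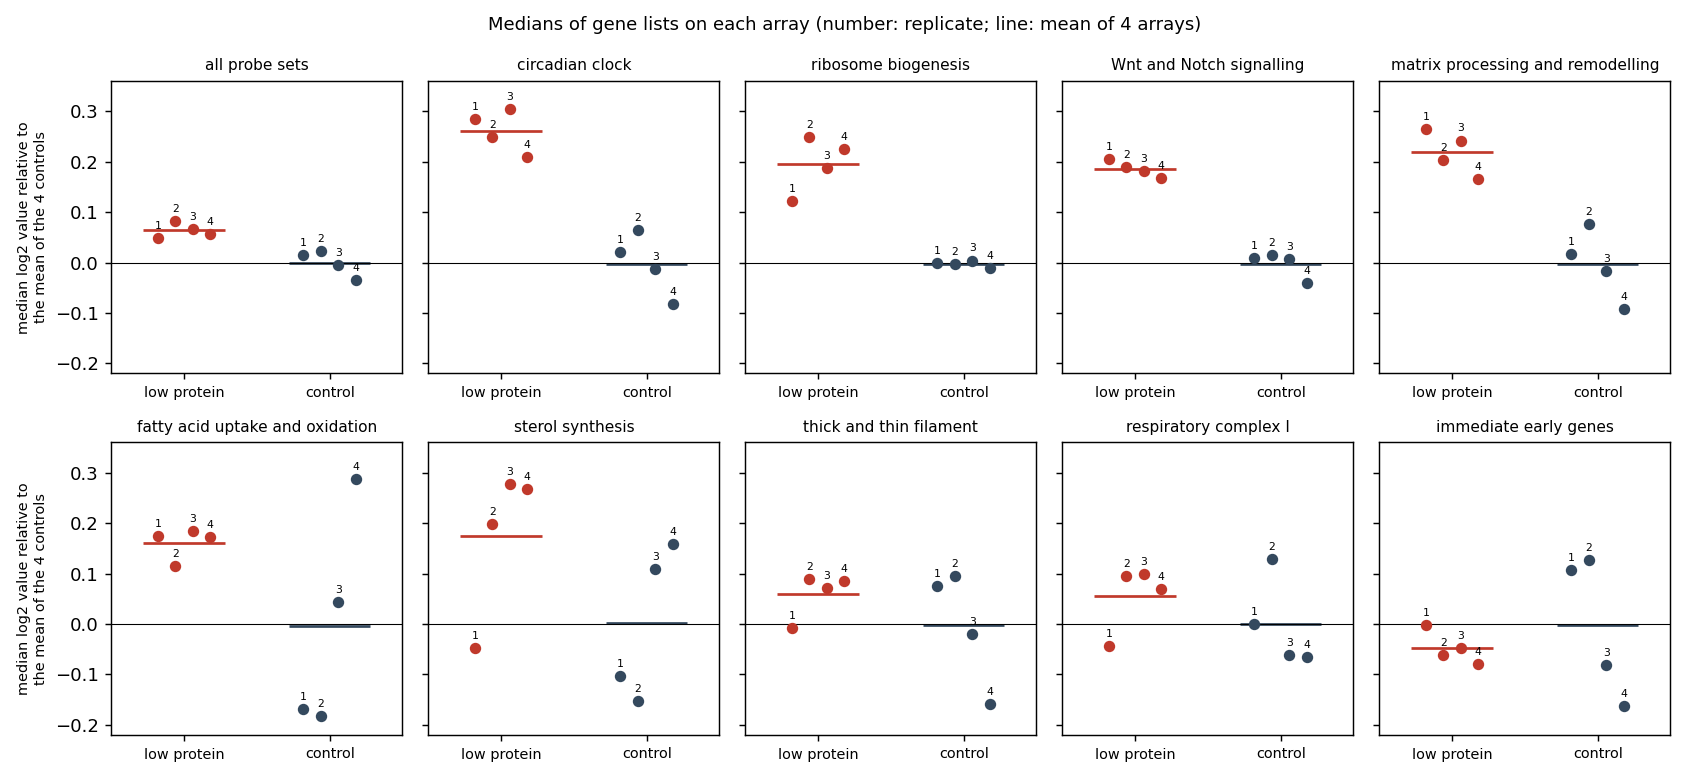
Median log2 value of 9 gene lists and of all probe sets on each array, relative to the mean of the 4 controls (y axis), with low protein arrays left of control arrays, replicate numbers beside the points and a line at the mean. All probe sets together separate the groups completely, as do clock, ribosome biogenesis, Wnt and Notch, and matrix processing. Control 1 and 2 lie apart from control 3 and 4 in fatty acid oxidation, sterol synthesis and immediate early genes.

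Many genes of matrix processing and of the signals that act on connective tissue were higher in low protein muscle. Of 39 genes for matrix processing and remodelling 22 were higher with all controls, 10 with control 1 and 2 only and 3 after cyclic loess, with medians of 0.247, 0.179 and 0.105. On single arrays the median was 0.264, 0.204, 0.242 and 0.166 in low protein 1 to 4, against 0.017, 0.076, -0.016 and -0.092 in control 1 to 4, without overlap. The median of all probe sets did not overlap either, at 0.049 to 0.083 against -0.035 to 0.023. Loxl1, an enzyme that cross-links elastin, had 10.18, 10.17, 10.07 and 10.33 in low protein muscle and 9.79, 9.74, 9.86 and 9.69 in control muscle. It was higher by 0.42 (SE 0.08, adjusted p = 0.00539) and was in the 4-fit set.

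Of 36 collagens and matrix proteoglycans, 14 were higher with all controls and 6 with control 1 and 2 only, with medians of 0.111 and 0.072, close to those of all genes. Thbs2, a matricellular thrombospondin, and Bgn, the small proteoglycan biglycan, were in the 4-fit set. Thbs2 averaged 10.58 ± 0.05 in low protein muscle and 10.24 ± 0.07 in control muscle (SD, n = 4 each), a difference of 0.34 (SE 0.05, adjusted p = 0.00419), and Bgn was higher by 0.24 (SE 0.05, adjusted p = 0.00712). Of 12 basement membrane genes 7 were higher with all controls and 3 with control 1 and 2 only. Frem2, which anchors epithelial basement membranes, had 8.22, 8.28, 8.54 and 8.23 in low protein muscle against 7.69, 7.86, 7.86 and 7.62 in control muscle, a difference of 0.56 (SE 0.10, adjusted p = 0.00488) with no overlap.

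Among 43 genes of myostatin, activin, TGF-beta and BMP signalling, 20 were higher and 2 lower with all controls and 9 and 1 with control 1 and 2 only, with medians of 0.212 and 0.152. The ligand gene Tgfb3 had 9.63, 9.69, 9.80 and 9.59 in low protein muscle and 9.20, 9.23, 9.31 and 9.20 in control muscle. It was higher on every low protein array, by 0.44 (SE 0.07, adjusted p = 0.00419). Acvr2b, the receptor that binds myostatin and activins, was higher by 0.30 (SE 0.07, adjusted p = 0.0098), and the activin subunit gene Inhbb fell by 0.23 (SE 0.06, adjusted p = 0.0153). All 3 were in the 4-fit set.

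Of 47 Wnt and Notch genes 24 were higher and 2 lower with all controls, 13 and 1 with control 1 and 2 only, and 8 and 2 after cyclic loess, with medians of 0.190, 0.164 and 0.087. The list held 4 genes higher and 1 lower of the 4-fit set, mostly secreted regulators. Dkk2, a secreted Wnt modulator, had 7.03, 7.10, 6.97 and 7.09 in low protein muscle against 6.5, 6.77, 6.77 and 6.62 in control muscle. The groups did not overlap and differed by 0.38 (SE 0.08, adjusted p = 0.00859). The Wnt-binding protein gene Sfrp1 was higher by 0.39 (SE 0.09, adjusted p = 0.00864), while its relative Sfrp5 fell by 0.32 (SE 0.07, adjusted p = 0.00993). Notch3, the Notch receptor of mural cells, was higher at 9.48 ± 0.10 in low protein muscle against 9.05 ± 0.10 in control muscle (SD, n = 4 each; adjusted p = 0.00455).

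Genes for the making of ribosomes were often higher. Of 59 ribosome biogenesis genes 32 were higher and 1 lower with all controls, and 23 and 1 with control 1 and 2 only, with medians of 0.218 and 0.215. On single arrays the median was 0.122, 0.249, 0.187 and 0.225 in low protein 1 to 4, against -0.001, -0.002, 0.004 and -0.010 in control 1 to 4, so control 3 and 4 lay with control 1 and 2. After cyclic loess 8 were higher and 4 lower, with a median of 0.075. Polr1e, a subunit of RNA polymerase I, had 7.60, 7.61, 7.5 and 7.51 in low protein muscle and 7.16, 7.28, 7.15 and 7.29 in control muscle, a difference of 0.34 (SE 0.06, adjusted p = 0.00524) with no overlap. Sdad1, a factor for the large ribosomal subunit, was higher by 0.34 (SE 0.06, adjusted p = 0.00474), and Nop16, a nucleolar protein gene, fell by 0.24 (SE 0.07, adjusted p = 0.0174). All 3 were in the 4-fit set.

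Of 69 cytosolic ribosomal protein genes 12 were higher with all controls and 3 with control 1 and 2 only, with medians of 0.076 and 0.052, below the median gene. With 1 probe set per gene, Rpl35 was the member of the 4-fit set, at 11.99 ± 0.08 in low protein muscle and 11.74 ± 0.05 in control muscle (SD, n = 4 each; adjusted p = 0.00721). Further probe sets of other members, not used for the count, were also in that set, 3 of Rpl36 (higher by 0.22 to 0.25) and 1 of Rpl4 (lower, at -0.31, against 0.02 on its brightest probe set). Ribosomal proteins have many near-identical pseudogenes, whose signal the probes may share. Translation factors counted 15 higher of 41 and then 8, and mitochondrial ribosomal proteins 19 of 70 and then 8. Aminoacyl-tRNA synthetases counted 7 higher of 22 with all controls and 8 with control 1 and 2 only, with medians of 0.147 and 0.189, and 0 after cyclic loess (also 0 at an unadjusted p of 0.05, limma). The list leaves out Tars3, a threonyl-tRNA synthetase gene in the 4-fit set, named after its values were seen, which was higher by 0.41 with all controls and 0.39 (adjusted p = 0.00249) after cyclic loess. The amino acid response list, which holds targets of the GCN2 and ATF4 pathway, counted 6 higher and 1 lower of 31 with all controls, with a median of 0.096. With control 1 and 2 only the list counted 8 and 0, with a median of 0.125. Within it Eif2ak4, the amino acid-sensing kinase GCN2 itself, was at 0.29 (SE 0.07, adjusted p = 0.0105) with all controls, 0.36 (adjusted p = 0.0164) with control 1 and 2 only and 0.14 (adjusted p = 0.179) after cyclic loess.

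Of 40 mTORC1 and nutrient-sensing genes 19 were higher with all controls, 10 with control 1 and 2 only and 5 after cyclic loess. Rragb, a Rag GTPase that brings mTORC1 to the lysosome, had 6.23, 6.62, 6.5 and 6.43 in low protein muscle and 6.04, 6.06, 5.93 and 5.92 in control muscle. Its difference was 0.46 (SE 0.09, adjusted p = 0.00619) and its groups did not overlap, at a dim signal. Wdr24, a subunit of the GATOR2 complex that relays amino acid signals, was higher by 0.30 (SE 0.07, adjusted p = 0.00927). Both were in the 4-fit set.

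For protein breakdown and secretion, the shares called higher as deposited lay on either side of that of all genes, 27.8% with all controls. Few of these genes were called after cyclic loess. The share was 37.5% for proteasome genes and 28.3% for autophagy and lysosome genes, and that of Golgi transport genes also lay above all genes. It was 21.6% for cytosolic chaperones, 14.6% for chaperones of the endoplasmic reticulum and 4.76% for atrophy ligases and FoxO genes. Proteasome genes counted 15 higher of 40 with all controls and 12 with control 1 and 2 only, with medians of 0.136 and 0.192, and 1 after cyclic loess. COPI, COPII and Golgi transport genes counted 20 of 50, then 14 and 0 (6 at an unadjusted p of 0.05, limma), and autophagy and lysosome genes 15 of 53, then 10 and 1. Among them Tmed10, a cargo receptor of the early secretory pathway, was higher by 0.33 (SE 0.06, adjusted p = 0.00506) with all controls and 0.41 (adjusted p = 0.00425) with control 1 and 2 only, and was at 0.20 (adjusted p = 0.0697) after cyclic loess. Of 21 atrophy ligases and FoxO genes 1 was higher, Stub1, a chaperone-linked ubiquitin ligase, by 0.28 (SE 0.05, adjusted p = 0.00614) with all controls, and it was at 0.12 (adjusted p = 0.134) after cyclic loess. The muscle atrophy ligases Fbxo32 and Trim63 were at 0.04 (SE 0.17, adjusted p = 0.884) and 0.26 (SE 0.23, adjusted p = 0.374). Trim63 had 8.70, 8.73, 8.87 and 8.66 in low protein muscle and 8.63, 8.53, 8.51 and 8.25 in control muscle, without overlap. Its SE also takes in the spread of the taurine arrays. Fbxo32 had 8.52, 8.63, 8.46 and 8.59 in low protein muscle and 8.74, 8.82, 8.34 and 8.14 in control muscle, so the controls lay on both sides. Chaperones of the endoplasmic reticulum counted 6 higher of 41 with all controls and 8 with control 1 and 2 only, with medians of 0.078 and 0.159. Cytosolic chaperones counted 8 of 37 and then 5. Unc45b, a myosin-folding chaperone of muscle, was higher by 0.38 (SE 0.08, adjusted p = 0.00693) and after cyclic loess by 0.24 (adjusted p = 0.0322), and was at 0.17 (adjusted p = 0.161) with both changes.

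Most clock genes were higher in low protein muscle when all controls were used. Of 18 measured, 11 were higher and 0 lower with all controls, 4 with control 1 and 2 only, 3 after cyclic loess and 2 with both changes, and the medians were 0.289, 0.203, 0.144 and 0.095. The list's median on single arrays was 0.284, 0.249, 0.304 and 0.209 in low protein 1 to 4, against 0.020, 0.064, -0.012 and -0.082 in control 1 to 4. The groups did not overlap, which also held for the median of all probe sets. Per3, a repressor of the loop, had log2 values of 7.98, 8.01, 8.10 and 8.11 in low protein muscle and 7.17, 7.38, 7.67 and 7.63 in control muscle. It was higher by 0.59 (SE 0.10, adjusted p = 0.00457), and the liver-carrying controls 3 and 4 lay nearest to the low protein arrays. Nr1d2, a nuclear receptor that represses Bmal1, had 8.61, 8.63, 8.77 and 8.71 in low protein muscle and 8.29, 8.22, 8.36 and 8.30 in control muscle, a difference of 0.38 (SE 0.06, adjusted p = 0.00419) without overlap. These were the members of the 4-fit set. Bmal1 itself, taken outside the naming rule as the partner they repress, was at -0.22 (SE 0.14, adjusted p = 0.22) with overlapping arrays. The hour at which newborns were killed is not given in the sources used here, so a difference in sampling time and in clock phase cannot be told apart from the diet.

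The promoter windows of the clock genes were searched because most of these genes were higher with all controls. RefSeq windows of assembly GRCr8, which span a transcription start and lie mostly upstream of it, were available for 18 starts of the list. The E-box CACGTG, the motif bound by BMAL1 and CLOCK, was searched on both strands and was found in 4 of the 18 windows (22.2%), against 2148 of 33469 windows of all genes (6.42%). The D-box core TTATGNAA, bound by DBP, TEF and NFIL3, was found in 1 of 18 (5.56%), against 3.66% of all windows. The motifs cannot overlap each other, and the windows of Per3 and Nr1d2 held neither. Below, 2 of the 4 windows with an E-box are shown, 5′ to 3′ on the gene's strand with the E-box in capitals, for 2 of the 3 such genes called higher with all controls (the third is Bhlhe41), chosen after their values were seen. Tef (chr7:115206577-115206876, + strand) encodes a D-box activator and averaged 8.31 ± 0.05 in low protein muscle and 8.02 ± 0.10 in control muscle. Nr1d1 (the downstream of its 2 starts, chr10:84229405-84229704, - strand) encodes the other Rev-erb repressor and averaged 8.07 ± 0.11 in low protein muscle and 7.71 ± 0.05 in control muscle (SD, n = 4 each).
Tef: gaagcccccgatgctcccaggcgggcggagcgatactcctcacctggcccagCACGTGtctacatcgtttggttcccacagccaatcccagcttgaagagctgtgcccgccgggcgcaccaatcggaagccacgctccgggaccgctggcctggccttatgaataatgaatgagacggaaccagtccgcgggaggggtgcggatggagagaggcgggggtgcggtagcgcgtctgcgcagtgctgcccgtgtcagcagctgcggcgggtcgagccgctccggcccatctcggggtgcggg
Nr1d1: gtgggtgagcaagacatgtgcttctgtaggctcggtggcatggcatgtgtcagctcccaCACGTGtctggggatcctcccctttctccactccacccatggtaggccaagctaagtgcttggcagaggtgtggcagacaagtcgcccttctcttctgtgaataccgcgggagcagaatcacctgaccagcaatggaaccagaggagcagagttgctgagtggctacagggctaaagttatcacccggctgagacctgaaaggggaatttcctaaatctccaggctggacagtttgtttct
With all controls Tef was higher by 0.29 (SE 0.09, adjusted p = 0.0345) and Nr1d1 by 0.37 (SE 0.09, adjusted p = 0.0102), and after cyclic loess they were at 0.14 (adjusted p = 0.35) and 0.23 (adjusted p = 0.103). A match is a run of letters, not a measured binding site.

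Other nuclear programmes were higher in number but by small amounts. Splicing genes counted 28 higher of 52 with all controls, 14 with control 1 and 2 only and 1 after cyclic loess, chromatin and DNA methylation genes 29 of 59, then 9 and 2, and RNA polymerase II and Mediator genes 20 of 50, then 13 and 4. Med27, a Mediator subunit, had 7.90, 7.82, 7.84 and 7.83 in low protein muscle and 7.36, 7.50, 7.42 and 7.54 in control muscle, higher on every low protein array by 0.40 (SE 0.05, adjusted p = 0.00417). Smarcb1, a core subunit of the SWI/SNF remodeller, was higher by 0.44 (SE 0.06, adjusted p = 0.00417) and the general transcription factor gene Gtf2f2 by 0.28 (SE 0.08, adjusted p = 0.021). These 3 were in the 4-fit set. The DNA methyltransferase genes Dnmt1 and Dnmt3a were at 0.24 (SE 0.11, adjusted p = 0.108) and 0.18 (SE 0.07, adjusted p = 0.055), although neither overlapped between the groups. Dnmt1 averaged 9.22 ± 0.03 in low protein muscle and 8.98 ± 0.05 in control muscle (SD, n = 4 each). Its SE also takes in the spread of the taurine arrays, so its missing call does not describe the spread of the 8 arrays alone.

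DNA replication genes counted 11 higher of 43 with all controls and 8 with control 1 and 2 only, with medians of 0.169 and 0.228, and general cell cycle genes 7 of 51 and then 2. Rfc3, a subunit of the clamp loader, and Pola2, a subunit of DNA polymerase alpha, were in the 4-fit set, higher by 0.42 (SE 0.08, adjusted p = 0.00573) and 0.43 (SE 0.08, adjusted p = 0.00576). Pola2 had 7.92, 7.93, 7.97 and 8.10 in low protein muscle and 7.39, 7.55, 7.66 and 7.58 in control muscle. The replication list's median was 0.046 in low protein 1, below the 0.065 of control 4, and 0.263, 0.127 and 0.270 in low protein 2 to 4, so low protein 1 overlapped the controls. In one-carbon and nucleotide synthesis 10 of 28 genes were higher and 1 lower with all controls, 8 and 0 with control 1 and 2 only and 1 and 0 after cyclic loess, with medians of 0.173, 0.190 and 0.028. Ctps1, which makes CTP, was higher by 0.50 (SE 0.10, adjusted p = 0.00721) and Cad, the first enzyme of pyrimidine synthesis, by 0.47 (SE 0.12, adjusted p = 0.0126), both with all controls. Ctps1 was at 0.43 (adjusted p = 0.0522) with both changes, and Cad at 0.32 (adjusted p = 0.0991) after cyclic loess.

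Immediate early genes, which respond to stimulation within minutes, had the lowest median of the 45 lists, -0.094 with all controls and -0.206 with control 1 and 2 only. The list counted 1 higher and 1 lower of 28, then 1 and 2. The list's median was -0.002, -0.061, -0.047 and -0.080 in low protein 1 to 4, against 0.106, 0.127, -0.081 and -0.163 in control 1 to 4. The low protein arrays lay between the 2 pairs of controls. The orphan nuclear receptor gene Nr4a2 went the other way, with 7.48, 7.47, 7.38 and 7.31 in low protein muscle and 6.86, 6.81, 7.03 and 7.04 in control muscle, higher by 0.47 (SE 0.07, adjusted p = 0.00417) and in the 4-fit set.

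Lipid programmes depended on the choice of controls. Of 35 genes of fatty acid uptake and oxidation 7 were higher with all controls and 17 with control 1 and 2 only, with medians of 0.202 and 0.353, and after cyclic loess 2 and 5, with medians of 0.065 and 0.225. The list's median was 0.174, 0.114, 0.184 and 0.172 in low protein 1 to 4 and -0.168, -0.183, 0.043 and 0.288 in control 1 to 4. Control 3 and 4, the arrays with liver transcripts, thus stood above control 1 and 2, and control 4 above every low protein array. Liver also expresses these enzymes, and the part of its transcripts in the list was not tested. With the hepatocyte marker level as a covariate the median was 0.320. Cpt1b, the muscle form of the enzyme that admits fatty acids to mitochondria, had 10.61, 10.49, 10.64 and 10.47 in low protein muscle and 10.16, 10.09, 10.22 and 10.08 in control muscle. All 4 controls lay below the low protein arrays, and it was higher by 0.42 (SE 0.08, adjusted p = 0.00694), by 0.30 (adjusted p = 0.035) after cyclic loess and by 0.35 (adjusted p = 0.0646) with both changes. Acacb, whose product malonyl-CoA inhibits that step, was higher by 0.39 (SE 0.06, adjusted p = 0.00445), by 0.23 (adjusted p = 0.0287) after cyclic loess, and was at 0.19 (adjusted p = 0.142) with both changes.

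Sterol synthesis genes counted 6 higher of 21 with all controls and 10 higher and 1 lower with control 1 and 2 only, with medians of 0.237 and 0.323. On single arrays low protein 1 had a median of -0.047 and low protein 2 to 4 had 0.199, 0.278 and 0.267, and it was -0.104, -0.153, 0.108 and 0.159 in control 1 to 4. The groups overlapped, with low protein 1 among the controls and control 3 and 4 above control 1 and 2. Fdps, an enzyme of the mevalonate pathway, was higher by 0.27 (SE 0.07, adjusted p = 0.0156), and Srebf2, the transcription factor of sterol genes, by 0.26 (SE 0.07, adjusted p = 0.0161), both with all controls, and they were at 0.14 (adjusted p = 0.225) and 0.11 (adjusted p = 0.272) after cyclic loess. Fatty acid synthesis and lipid storage genes counted 13 higher and 1 lower of 36 with all controls and 13 and 0 with control 1 and 2 only. Their median was the highest of the 45 lists with all controls, 0.299, and was 0.367 with control 1 and 2 only. On single arrays low protein 1 had 0.402, and low protein 2 to 4 had 0.079, 0.243 and 0.219, against -0.056, -0.065, -0.029 and 0.083 in control 1 to 4. Control 4 thus lay just above low protein 2. Bscl2, the lipid droplet protein seipin, was in the 4-fit set at 7.03 ± 0.09 in low protein muscle and 6.73 ± 0.12 in control muscle (SD, n = 4 each; adjusted p = 0.0129).

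The share of growth factor signalling genes called was close to that of all genes. Of 37 insulin and IGF signalling genes 12 were higher and 1 lower with all controls, and 5 and 1 with control 1 and 2 only. Igf1 had 11.12, 11.13, 11.13 and 11.08 in low protein muscle and 10.97, 11.0, 11.01 and 10.89 in control muscle. The groups did not overlap, but the difference was 0.15 (SE 0.04, adjusted p = 0.0266), and with control 1 and 2 only it was 0.13 (adjusted p = 0.109). The fetal growth factor gene Igf2 was at -0.04 (SE 0.05, adjusted p = 0.487), and the receptor genes Igf1r and Insr were at 0.04 (SE 0.13, adjusted p = 0.826) and 0.08 (SE 0.13, adjusted p = 0.647). Slc2a4, the insulin-regulated glucose transporter GLUT4, was at 0.35 (SE 0.16, adjusted p = 0.112), although its arrays did not overlap. Igfbp5, a binding protein secreted by differentiating muscle cells, had 10.64, 10.57, 10.70 and 10.66 in low protein muscle and 10.08, 10.22, 10.36 and 10.23 in control muscle. It was higher by 0.42 (SE 0.09, adjusted p = 0.00756) and was the member of the 4-fit set.

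Stress programmes gave few calls. Antioxidant genes counted 4 higher of 36 with all controls, with a median of 0.015 (0.091 with control 1 and 2 only). The quinone reductase gene Nqo1, a target of NRF2, was in the 4-fit set at a dim signal, with 6.44, 6.60, 6.53 and 6.82 in low protein muscle and 6.21, 6.35, 6.17 and 6.36 in control muscle. Of 20 glucocorticoid receptor and target genes 4 were higher and 1 lower, and the receptor gene Nr3c1 was at 0.08 (SE 0.07, adjusted p = 0.42). The lower one was the metallothionein gene Mt2A, at 10.67, 10.75, 10.53 and 10.48 in low protein muscle against 11.49, 10.98, 12.69 and 13.32 in control muscle, where control 3 and 4 were highest. It fell by 1.51 (SE 0.49, adjusted p = 0.0326) with all controls and was at -0.62 (adjusted p = 0.288) with control 1 and 2 only. Hypoxia genes counted 4 higher and 1 lower of 19, and interferon and antigen presentation genes 1 and 2 of 23, among them Oasl, which fell by 0.47 (SE 0.08, adjusted p = 0.00492) and had a difference of -0.33 (adjusted p = 0.0826) with both changes.

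Of 20 genes of taurine and sulphur amino acid metabolism 4 were higher and 1 lower with all controls, and 5 and 0 with control 1 and 2 only. The list held 2 members of the 4-fit set. Slc6a6, the taurine transporter, had 8.55, 8.62, 8.78 and 8.68 in low protein muscle and 8.18, 8.09, 8.23 and 8.37 in control muscle, without overlap, and with control 1 and 2 only and cyclic loess together it was still higher, by 0.39 (adjusted p = 0.0203). Gadl1, a decarboxylase of acidic amino acids found in muscle, had 6.46, 6.68, 6.81 and 6.79 in low protein muscle and 5.83, 5.99, 6.29 and 6.25 in control muscle. It was higher by 0.59 (SE 0.12, adjusted p = 0.00693), at a dim signal.

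Most of the single genes with the largest differences in every fit were in none of these lists, Gadl1 being the exception. Hmgcll1, a relative of the lyase that makes ketone bodies, had 6.67, 6.89, 6.80 and 6.83 in low protein muscle and 6.23, 6.26, 6.28 and 6.28 in control muscle. It was higher by 0.54 (SE 0.06, adjusted p = 0.00417), and the controls spread by 0.02 (SD). Rnf135, a ubiquitin ligase of antiviral signalling, was higher on both of its probe sets, by 0.71 (SE 0.14, adjusted p = 0.00697) and 0.56 (SE 0.08, adjusted p = 0.00417). Lgr5, a receptor for R-spondins, had 7.28, 7.28, 7.24 and 7.67 in low protein muscle and 6.78, 6.47, 6.94 and 6.78 in control muscle, a difference of 0.63 (SE 0.12, adjusted p = 0.00619). One R-spondin gene, Rspo1, went the other way, with 6.76, 6.55, 6.61 and 6.56 in low protein muscle against 7.20, 6.99, 6.94 and 7.04 in control muscle. It fell by 0.42 (SE 0.08, adjusted p = 0.00573).

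The other large rises ranged from 0.51 for Bbs12, a ciliary chaperonin-like protein, to 0.77 for the membrane protein gene Lrrn1. They included Galnt5, a starter enzyme of O-glycosylation at 0.65, Plcd4, a phospholipase C at 0.64, Pdlim2 at 0.71 and Mchr1, a receptor for melanin-concentrating hormone, at 0.70. Scube2, a secreted factor that releases Hedgehog proteins, was higher by 0.60, S100a4, a calcium-binding protein of motile cells, by 0.57, the endopeptidase gene Phex by 0.56 and the plasminogen receptor gene Plgrkt by 0.55. Scube2 had 7.59, 7.44, 7.81 and 7.49 in low protein muscle against 6.85, 7.07, 6.96 and 7.05 in control muscle. Every one of these genes separated the low protein from the control arrays, by the choice of the set. The rises were dim to medium, with a median level of 7.21.

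**Figure D4:**
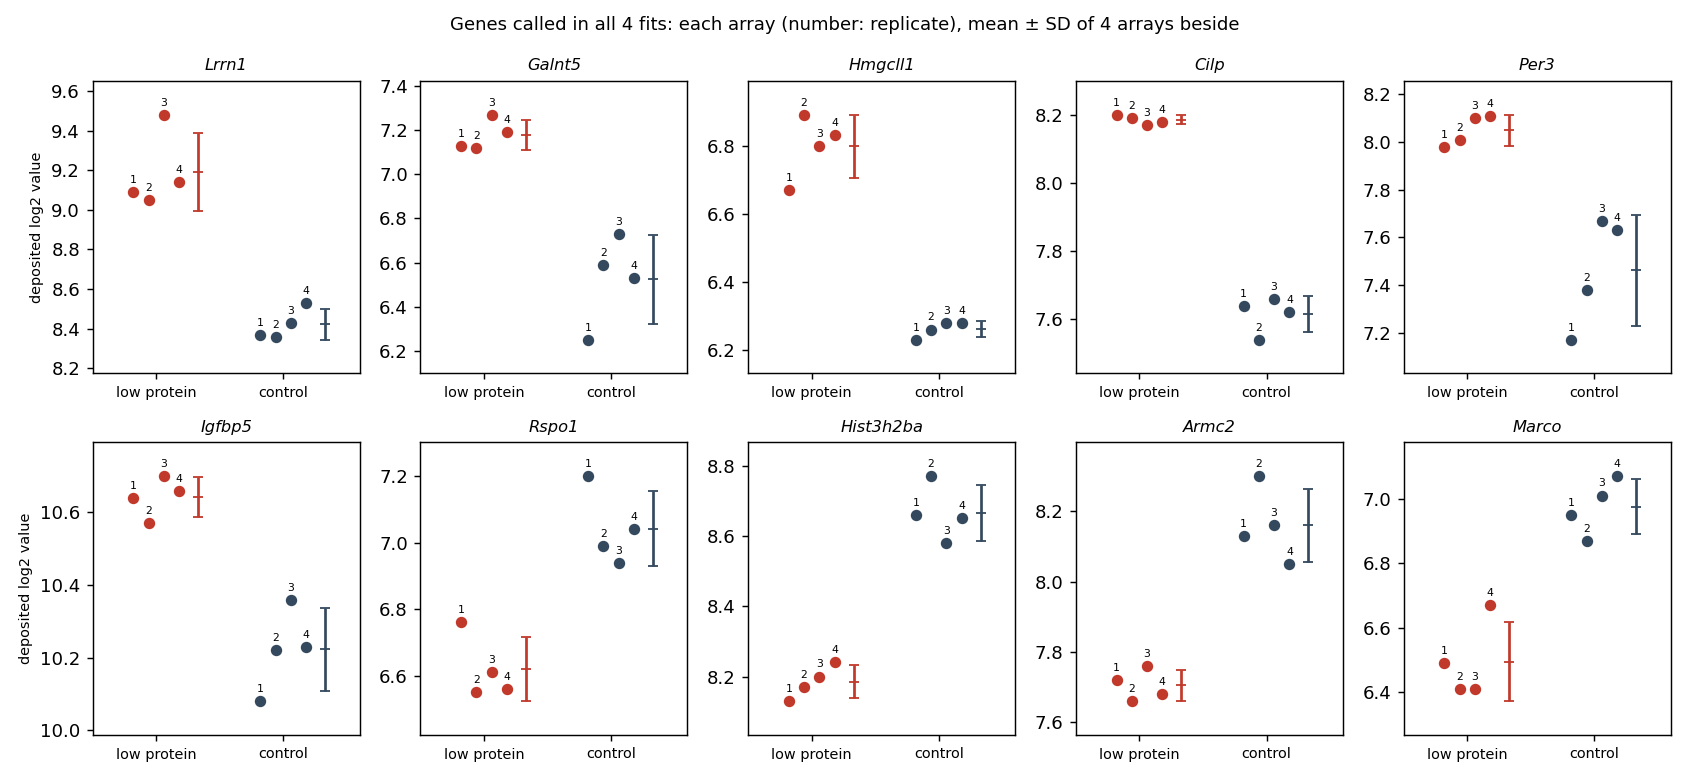
Deposited log2 values of 10 genes of the 4-fit set on each array, low protein left of control, with replicate numbers, and the mean ± SD of 4 arrays beside the points. Lrrn1, Galnt5, Hmgcll1, Cilp, Per3 and Igfbp5 are higher and Rspo1, Hist3h2ba, Armc2 and Marco lower on every low protein array.

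Among the falls, most probe sets carried no gene name: 446 of the 645 lower in the 4-fit set had no single symbol, against 46 of the 292 higher ones and 6908 of all 18957 probe sets. The largest named fall was that of Cbx3, a heterochromatin protein 1 gene, at -0.80 (SE 0.19, adjusted p = 0.0108), with 7.41, 7.71, 7.32 and 7.01 in low protein muscle and 8.68, 8.17, 7.98 and 7.80 in control muscle. Hist3h2ba, a histone H2B gene, had 8.13, 8.17, 8.20 and 8.24 in low protein muscle and 8.66, 8.77, 8.58 and 8.65 in control muscle, and fell by 0.48 (SE 0.06, adjusted p = 0.00417). Gprin3 fell by 0.68 and Armc2, an armadillo-repeat protein gene, by 0.45.

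The remaining falls named here had mean levels from 6.14 for Rln3 to 8.16 for Rpl31l3 in low protein muscle, and lay between -0.39 and -0.51. They held genes known for other tissues, such as Tchh of hair follicles, the neuropeptide gene Rln3 and Rhox13 of the germ line, and 2 ribosomal protein-like genes, Rpl31l3 and Rpl36al1. The others were Fancd2osl1, Tmem191c and Mroh5. Signal at the lower of these levels can be background of the probes, and its part in the falls was not tested.

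Vessel and connective tissue markers were called mainly with all controls: 11 of 20 endothelial genes with all controls and 3 with control 1 and 2 only, 7 of 13 pericyte and smooth muscle genes and then 3, and 4 of 15 fibroblast genes and then 1. After cyclic loess 1, 2 and 0 of these were higher. Their medians were 0.181, 0.210 and 0.174 with all controls and 0.058, 0.122 and 0.099 after cyclic loess, against 0.114 and 0.027 for the median gene. The endothelial receptor gene Tie1 had 9.10, 9.03, 9.10 and 9.03 in low protein muscle and 8.86, 8.82, 8.87 and 8.81 in control muscle, higher by 0.22 (SE 0.05, adjusted p = 0.00745) and at 0.07 (adjusted p = 0.35) after cyclic loess. Of 6 tendon genes 4 were higher with all controls, 1 was higher and 1 lower with control 1 and 2 only and 1 was higher after cyclic loess, and Cilp, which encodes a matrix protein of cartilage and tendon, was in the 4-fit set. It had 8.20, 8.19, 8.17 and 8.18 in low protein muscle and 7.64, 7.54, 7.66 and 7.62 in control muscle, a difference of 0.57 (SE 0.08, adjusted p = 0.00417). Satellite cell markers counted 4 higher of 9 with all controls, then 1, with the summed level of a list given here as its mean: 8.42 to 8.56 in low protein muscle and 8.27 to 8.35 in control muscle.

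Hepatocyte and erythroid markers had medians below 0 with all controls and above 0 with control 1 and 2 only. Of 17 hepatocyte genes the median was -2.016 and then 0.457, and 1 gene was lower in each fit. This was the liver transcription factor gene Hnf4a, with 6.51, 6.45, 6.36 and 6.31 in low protein muscle and 6.71, 6.83, 7.61 and 8.89 in control muscle, and it was not called after cyclic loess (adjusted p = 0.0669). Erythroid genes had a median of -0.369 and then 0.057, with mean levels of 8.27 to 8.41 in low protein muscle and 8.12 to 9.55 in control muscle. Klf1, the erythroid transcription factor gene, fell by 0.51 (adjusted p = 0.0164), and its difference was -0.28 (adjusted p = 0.0469) with control 1 and 2 only. Neutrophil and mast cell genes had medians of -0.196 and then -0.045 and counted 0 higher and 1 lower of 12, and the lower one, Camp, was at -0.89 (adjusted p = 0.0413) with all controls and -0.21 (adjusted p = 0.0607) with control 1 and 2 only.

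Other lists moved with a single array. Adipocyte markers counted 4 higher of 13 with all controls and 2 with control 1 and 2 only, with medians of 0.466 and 0.233. On single arrays the list's median was 1.153, -0.026, 0.160 and 0.410 in low protein 1 to 4 against 0.171, 0.008, -0.140 and -0.218 in control 1 to 4, so low protein 1 was above every other array. Low protein 1 was also the array with the highest lipid storage median, and the part of fat cells in that programme was not tested. Cidea, a lipid droplet protein gene of fat, had 10.95, 10.15, 10.56 and 9.94 in low protein muscle and 9.56, 9.69, 9.72 and 9.70 in control muscle, higher by 0.73 (SE 0.19, adjusted p = 0.0144) and at 0.61 (adjusted p = 0.0545) after cyclic loess. Keratinocyte genes had a mean level of 8.51 in low protein 4 and of 6.07 to 7.33 in the other low protein arrays, against 6.44 to 7.66 in control muscle. Macrophage genes counted 0 higher and 1 lower of 18, lymphocyte genes 0 and 1 of 7 and cartilage and bone genes 0 and 1 of 18. The lower genes were in the 4-fit set: the scavenger receptor gene Marco at -0.48 (SE 0.08, adjusted p = 0.00445), the B cell receptor gene Cd79b at -0.33 (SE 0.06, adjusted p = 0.00463) and the cartilage collagen gene Col9a2 at -0.34 (SE 0.09, adjusted p = 0.013). Of 9 Schwann cell genes limma called 0 with all controls, and 2 were higher at an unadjusted p of 0.05. Pancreatic acinar genes, at a dim signal, counted 0 higher and 2 lower of 7 with a median of -0.164, and the lists of olfactory and vomeronasal receptor symbols 2 and 1 lower of 4 each, with medians of -0.252 and -0.155.

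**Figure D5:**
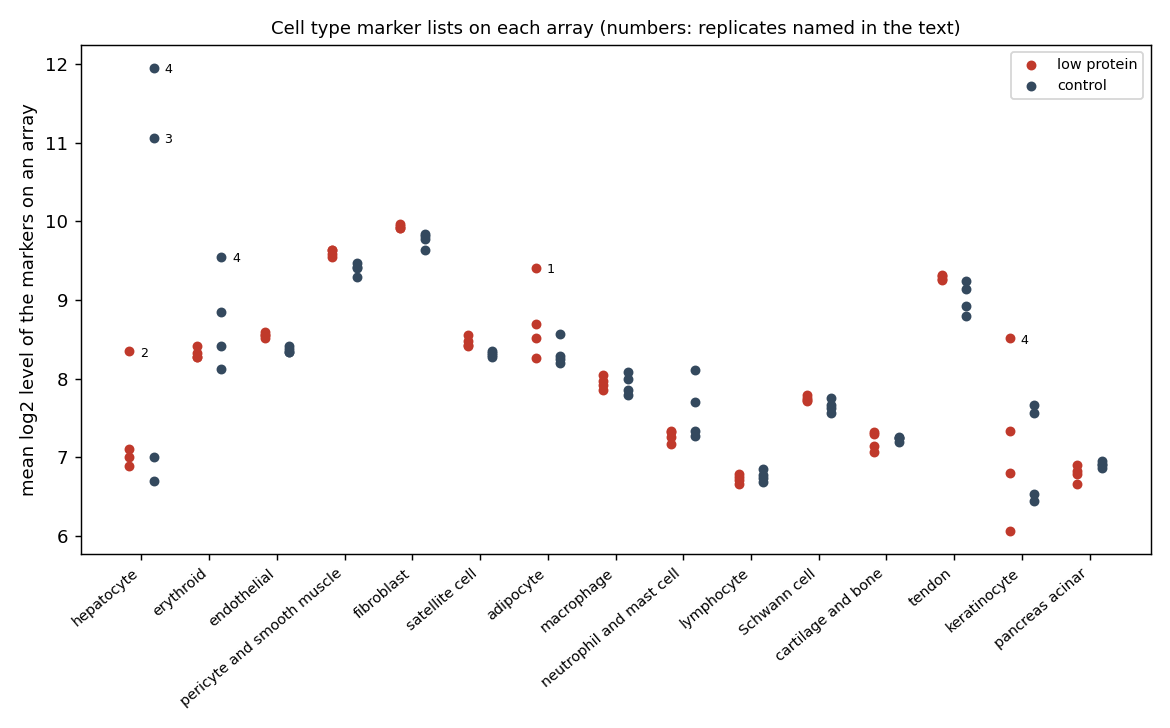
Mean log2 level of 15 cell type marker lists on each array, low protein left of control, with replicate numbers beside the arrays named in the text. Hepatocyte markers reach 11.06 in control 3 and 11.95 in control 4, adipocyte markers are highest in low protein 1, and keratinocyte markers in low protein 4.

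The authors' deposited table of selected probe sets holds 895 entries, of which 670 have a ratio of low protein to control above 1 and 225 below 1. It was chosen on these same arrays. Of the 4-fit set, 180 higher and 119 lower probe sets are in the authors' deposited table and 638 are not.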

How the data were processed

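RNA of 12 pools was hybridised to Affymetrix arrays, and the authors computed RMA log2 values per probe set in R 3.2.2, per the submitters' processing notes; no source used here names the genome build. The deposited log2 values hold 18957 probe sets that passed the authors' detection filter, per the deposited descriptions. The ratio of low protein to control was read only from the authors' deposited table, for 895 probe sets.

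Groups came from the labels. Each probe set was fitted with limma 3.58.1 (R 4.3.3) on all 12 arrays with 3 group means, with moderated tests of both directions whose p-values were adjusted by Benjamini-Hochberg across 18957 probe sets, at an adjusted p of 0.05. The fit was repeated without control 3 and 4, after cyclic loess (3 iterations), and with both changes. On simulated data at 18957 probe sets, 76% of changes of 0.5 and 97% of changes of 1 (log2) were recovered with all arrays (6 false among 179 calls), and 60% and 94% without control 3 and 4 (9 among 163). The simulated noise was independent between probe sets, and few probe sets were changed. It held no level-dependent difference and no arrays with liver transcripts, so these rates need not hold for the measured arrays.

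The platform annotation gave 1 symbol to 11721 probe sets, several to 141 and none to 7095, of which 328 were named through the authors' table; 11702 matched RefSeq. For a gene with several probe sets the brightest was used. Named genes were the 15 largest rises and 15 largest falls of the 4-fit set by their smallest difference over the 4 fits (no predicted genes, olfactory or vomeronasal receptors or microRNAs), up to 4 members of each list in that set by smallest p, or up to 2 where a list had none, and a fixed set of growth and muscle genes; Tef, Nr1d1 and Bmal1 were added afterwards. A few genes that this rule picks are not reported here. The members and the gene lists were chosen with earlier results of these data known. Replicate numbers stand for different dams: same-number deviations of low protein and control correlated at 0.134, -0.205, -0.205 and 0.039, so arrays were not paired. No scan date or array batch is given in the sources used here. The alternatives tried were 2-group fits, the replicate block, quantile normalization, median centring, trend and robust options, filters on level and symbol, all 29214 probe sets, array weights, a hepatocyte covariate and leaving out each array.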

Additional observations from a re-analysis of the deposited data

Results flagged for a closer look

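For each gene named by the rule, the 4 low protein and the 4 control arrays were searched for 1 array that lay apart from the other 3 by Dixon's criterion. Of 316 groups, 20 had such an array (6.33%), and chance alone gives about 1 in 20. No array held most of them. Control 1 stood apart for Plcd4, at 6.46 against 6.91 to 6.98 in the other controls, and for Ogdh, at 9.84 against 9.93 to 9.95. Control 2 stood apart for Atp5mc2 at 11.68 (11.43 to 11.47 in the others), Dnajc10 at 8.34 (8.48 to 8.51) and Sfrp1 at 6.76 (7.0 to 7.04). Control 3 stood apart for Thbs2 at 10.35 (10.20 to 10.21), and control 4 for Tchh at 7.79 (7.99 to 8.0) and Col9a2 at 7.63 (7.80 to 7.83).

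Low protein 4 stood apart for Rnf135 at 6.5 against 6.91 to 6.98 in the other low protein arrays, Lgr5 at 7.67 (7.24 to 7.28), Eif2ak4 at 8.21 (8.39 to 8.41), Igf1 at 11.08 (11.12 to 11.13) and Igf1r at 9.5 (9.87 to 9.91). Low protein 1 stood apart for Ndufa7 at 8.93 (9.02 to 9.04), Ccnd2 at 10.51 (10.31 to 10.33) and Rfc3 at 7.24 (7.52 to 7.57). Low protein 3 stood apart for Fancd2osl1 at 7.57 (7.79 to 7.83) and Unc45b at 9.80 (9.56 to 9.60), and low protein 2 for Vhl at 7.82 (7.90 to 7.92) and Klf1 at 6.71 (6.91 to 6.93).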

How the results depend on the processing

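With all controls 6390 probe sets were called; the count was 2564 after cyclic loess, 2982 after quantile normalization, 3863 among probe sets above the median level, 3838 among those with 1 symbol, 3705 without control 3 and 4, and 3929 to 5831 with 1 array left out. With control 1 and 2 only it was 3705, and 1937 after cyclic loess, 2226 after quantile normalization, 2216 above the median level, 1723 with 1 symbol and 210 to 3404 with 1 array left out. The 2 filters test fewer probe sets; for the other changes the cause was not tested. With the replicate number as a block the counts were 5456 and 629, with numbers that do not pair the dams. The 2-group fit, trend and robust options, median centring, array weights and all probe sets kept both counts within 1.5 times. With control 1 and 2 only, the share of calls that were higher was 55.1% as deposited, 33.3% after cyclic loess, 40% after quantile normalization and 20.6% after centring. The medians of the 45 programme lists changed sign for 13 lists after cyclic loess, 10 after median centring, 5 after quantile normalization and 5 without control 3 and 4. After cyclic loess 50 of the named genes' probe sets lost their call, and 28 without control 3 and 4. The 6 genes without a call that changed sign were Alb, to 1.04 with the hepatocyte covariate and 1.5 without control 3 and 4; Igf1r, to -0.09 after cyclic loess, -0.04 after quantile normalization and after centring, -0.07 to 0.13 with 1 array left out (-0.002 without low protein 3, -0.07 without control 4), -0.11 with the covariate and -0.18 without control 3 and 4; Insr, to -0.05 and -0.002 after cyclic loess and centring and -0.003 to 0.16 with 1 array left out; Myod1, to -0.04 after cyclic loess; Fbxo32, to -0.12, -0.08 and -0.05 after cyclic loess, quantile normalization and centring, -0.09 to 0.14 with 1 array left out (-0.02 without control 3), -0.14 with the covariate and -0.23 without both; and Nr3c1, to -0.06, -0.009 and -0.006 after cyclic loess, quantile normalization and centring and -0.03 without control 3 and 4. Among the named genes of the 4-fit set, cyclic loess lowered by over 1.5 times Clcn1 (0.40 as deposited, 0.25 after), Ogdh (0.29, 0.17), Sdad1 (0.34, 0.19), Notch3 (0.43, 0.28), Smarcb1 (0.44, 0.28), Nr1d2 (0.38, 0.23) and Slc6a6 (0.44, 0.28). Dim signal limits what can be measured: the dimmest bin spans levels of 5.93 to 6.35.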

Other observations

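Families outside the lists were read from gene symbols after the values had been seen, so they are descriptions. Zinc finger genes with a Zfp symbol counted 60 higher and 2 lower of 150 with all controls, 32 and 1 with control 1 and 2 only, 21 and 1 after cyclic loess and 14 and 0 with both changes, with medians of 0.155, 0.141, 0.087 and 0.053, against 27.8% higher and 7.24% lower of all genes with all controls. Of these, 10 were in the 4-fit set, all higher, among them Zfp40, Zfp84 and Zfp346. Genes for centrosomal proteins (Cep symbols) counted 9 higher of 22 with all controls, 5 with control 1 and 2 only and 5 after cyclic loess, and Cep41, Cep57 and Cep78 were in the 4-fit set. Histone genes counted 0 higher and 7 lower of 31 with all controls and 0 and 8 after cyclic loess, with 6 in the 4-fit set (H1f7, H2ab3, H2aj, H2bc1, Hist1h2af and Hist3h2ba).

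Families of genes known from other tissues had low signals and medians below 0. In the 2 dimmest of 10 level bins 24.5% and 25% of all probe sets were lower with all controls. Of 33 homeobox and bHLH factors of neural and endoderm patterning, a set put together after the values had been seen, 25 were lower with all controls, 21 with control 1 and 2 only and 23 after cyclic loess, with medians of -0.314, -0.343 and -0.307 at a median level of 7.01. The 18 in the 4-fit set included Nkx2-1, Neurog1, Pou4f1, Otp and Barhl1. Keratin and keratin-associated genes counted 1 higher and 18 lower of 37, with a median of -0.243 and after cyclic loess of -0.149. Olfactory receptor genes counted 0 higher and 23 lower of 65 with all controls 0 and 9 after cyclic loess and 0 and 5 with both changes, with medians of -0.179 and -0.060 at a median level of 6.31. Predicted genes with LOC or RGD symbols counted 32 higher and 72 lower of 112, with medians of -0.374 with all controls and -0.382 after cyclic loess. Symbols of 328 probe sets came only from the authors' table, which was chosen on these same arrays. A count of predicted genes can therefore follow from how they were named, and this was not tested. Other families went both ways: potassium channel genes (Kcn symbols) counted 10 higher and 11 lower of 61, with 4 and 5 in the 4-fit set, and Gpr receptor genes 5 higher and 8 lower of 35, with 0 and 4. What these dim signals measure was not tested.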
